A study of Mus musculus with 12 samples.

Results

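The 42 genes described here are named markers of neurons and of the progenitor cells that give rise to them. They were taken as every probe of the array whose gene name, older symbol or accession belongs to a fixed list of 42 genes, which gave 86 of the 41174 probes and 42 of the 21179 named genes. The members fall into roles: progenitor and glial markers, proneural transcription factors, neuronal RNA-binding proteins, stathmins, microtubule and growth cone proteins, neuronal intermediate filaments, synaptic proteins, adhesion molecules, receptors, 2 other neuron-enriched genes and the repressor Rest.

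The study profiled mouse embryonic stem (ES) cells, pluripotent cells cultured from the early embryo, that had spent 3 days in retinoic acid or were left undifferentiated. Retinoic acid is the vitamin A derivative that activates nuclear receptors and is widely used to start neural differentiation of ES cells. Each group held 3 biological samples, and total RNA of each was amplified once, labelled with Cy3 and measured on 2 technical arrays, 12 arrays in all. The labels give no cell line, genotype, medium, dose or culture format and leave unstated whether a group's samples were grown separately, so p-values here measure only how far these samples differ from each other. All samples were bulk RNA, in which fewer cells of a type and less RNA per cell cannot be told apart.

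Neural progenitors carry the filament protein nestin and switch on proneural transcription factors of the basic helix-loop-helix family, which bind E-box sequences in DNA and start the neuronal programme. Young neurons then make proteins that bind and reshape microtubules in the growing axon, and later the filaments and vesicle proteins of mature axons and synapses. In ES cells and other non-neuronal cells many of these genes are held down by REST, a zinc finger repressor that recruits histone deacetylases and demethylases to its binding element.

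Values are log2 of the quantile-normalised net intensity plus 50, averaged over the technical arrays of a sample, which understates the changes of dim genes, and levels of different genes cannot be compared. Each gene is given by its brightest probe unless another is named, and differences are retinoic acid minus undifferentiated. The background limit of an array was the 95th percentile of its 27 control spots. Genes above this limit on 4 or more of 6 arrays in one group or both were tested, and a gene was called when limma gave an adjusted p under 0.05 over all 15326 genes tested.

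Technical arrays of a sample correlated at 0.987 to 0.997 over all probes, and samples of a group at 0.968 to 0.992. Background limits ran from 8.50 to 51.6 in net intensity between arrays and median intensities from 37.4 to 96.6. Of 8 pluripotency genes 7 were lower after retinoic acid, Pou5f1 by -4.72 ± 0.48 (SE) among them, and Cyp26a1, which breaks down retinoic acid, was higher by 8.04 ± 0.18 (SE), with 2 arrays over an intensity of 40000. It was 1 of 4 higher genes among 7 of the retinoic acid response, of which Rarb (-0.27), Stra6 (-0.27) and Hoxb1 (-0.48) were not called. A second Rarb probe differed by 0.94. Marker lists of other cell types moved in the same comparison. The summed intensity of 8 trophoblast markers (5 of 7 tested higher) was 53848 to 60541 in retinoic acid samples and 1283 to 3271 in undifferentiated samples, with Elf5 above background on 0 arrays of either group. Of these markers the keratins Krt8, Krt18 and Krt19, which other simple epithelia also make, were higher by 4.65 to 5.15, while Eomes was not called (-0.47). These keratins made up most of the summed intensity in both groups, so the sum says little about the other markers. For 8 endoderm markers (4 of 7 higher, Ttr above background on 0 arrays) the sums were 5499 to 6039 after retinoic acid and 853 to 1690 undifferentiated. For 8 mesoderm markers (3 of 6 higher, Mixl1 above background on 0 retinoic acid arrays) they were 1918 to 2107 after retinoic acid and 347 to 411 undifferentiated. For 8 fibroblast markers (4 of 8 higher, Thy1 lower) they were 25354 to 32027 after retinoic acid and 5850 to 14698 undifferentiated. Tagln and Acta2 together made up most of the fibroblast sums, and Acta2 was not called (0.91; limma, adjusted p = 0.142). The part of these cell types in the neuronal genes' values was not tested.

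Most of the neuronal genes were already above background before treatment, in a share near that of all named genes. On all 6 retinoic acid arrays 29 of the 42 genes (69.0%) were above the limit, where 63.6% of all named genes were, and on all 6 undifferentiated arrays 26 (61.9%), where 58.6% of all named genes were. The 24 genes above it on all 12 arrays spanned nearly every role, from Nes and Neurog1 through the stathmins Stmn1, Stmn2 and Stmn3 to Tubb3, Mapt, Nefl, Ncam1 and Rest. Another 5 were above the limit on at least 4 arrays of both groups (Elavl3, Stmn4, Gap43, Syp and Ntrk2). Syt1 and Nrcam reached it on at least 4 arrays after retinoic acid only, and Neurod1, Gad1 and L1cam in undifferentiated cells only. Pou3f2, Gfap, Neurog2, Fabp7, Nefm and Snap25 were above it on at most 3 arrays of a group, and Olig2 and Ret on 0 of 12, a class that held 4.26% of all named genes. These 8 genes were not tested. In all, 8 of the 42 genes were above the limit on 0 of 6 retinoic acid arrays, as 17% of all named genes were, and 3 on 0 of 6 undifferentiated arrays, as 5.92% of all were. Both arrays of undifferentiated replicate 2 had the lowest limits of the 12, 8.50 and 9.24 in net intensity, and the largest shares of probes above the limit. How far this sample alone made the counts of the groups differ was not tested. With the highest control spot as the limit 23 genes were above background on all 12 arrays, and Stmn4, Gap43 and Ntrk2 joined the genes above it on at least 4 arrays after retinoic acid only. Elavl3 joined those above it on at least 4 undifferentiated arrays only, and L1cam left them, being above it on at most 3 arrays of a group.

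**Figure D1:**
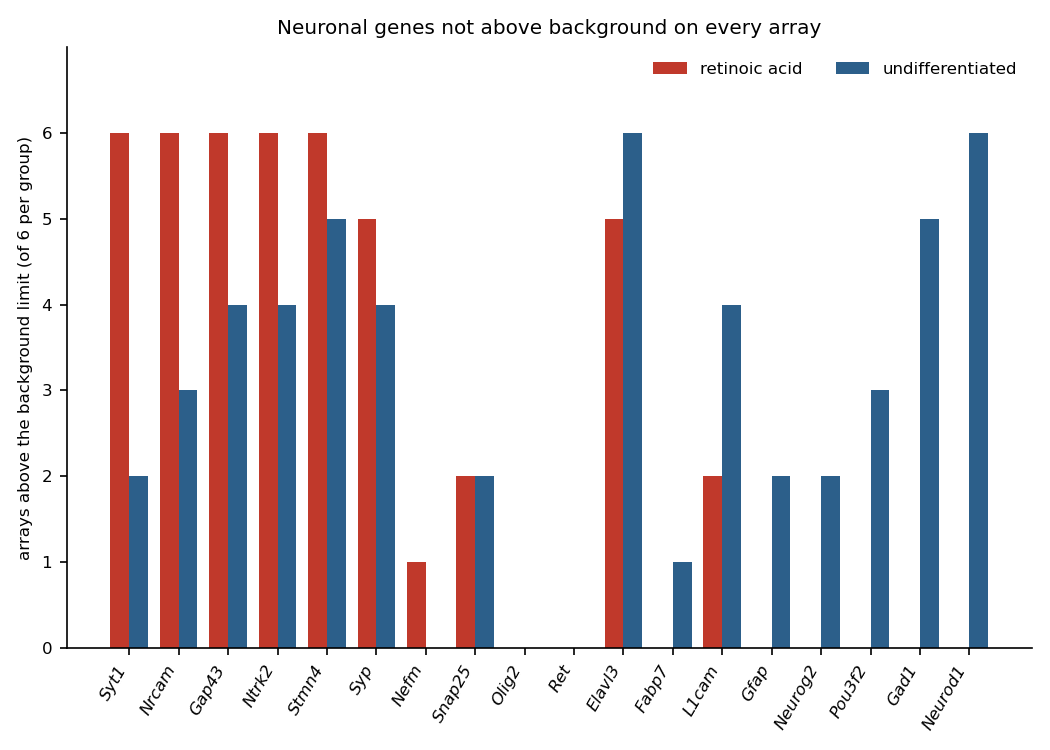
Arrays above the background limit, of 6 per group, for the 18 neuronal genes that were not above it on every array, with retinoic acid in red and undifferentiated in blue. Syt1 and Nrcam stand at 6 retinoic acid arrays against 2 and 3 undifferentiated arrays, and Neurod1 at 0 against 6.

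After retinoic acid 7 of the 34 tested neuronal genes rose, 9 fell and 18 were not called, so that 16 were called in either direction, where 32.3% of all genes tested were. The shares were 20.6% higher, with 18.7% in all 15326 genes, and 26.5% lower, with 13.6% in all genes. The median difference of the 34 genes was -0.30 and that of all genes 0.0035. The 3 values of each group did not overlap in 8 tested neuronal genes that were higher and 13 that were lower after retinoic acid, and this held for 25.7% and 20.8% of all genes tested. The genes that rose were Nnat, Stmn4, Dpysl2, Dpysl4, Dpysl3, Nrcam and Syt1. The genes that fell were Stmn2, Nefl, Stmn3, Elavl3, Elavl2, Mapt, Rest, Neurod1 and Elavl4. All 3 neuronal RNA-binding proteins were thus among the falls and 3 dihydropyrimidinase-like genes among the rises, while the stathmins were in both.

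**Figure D2:**
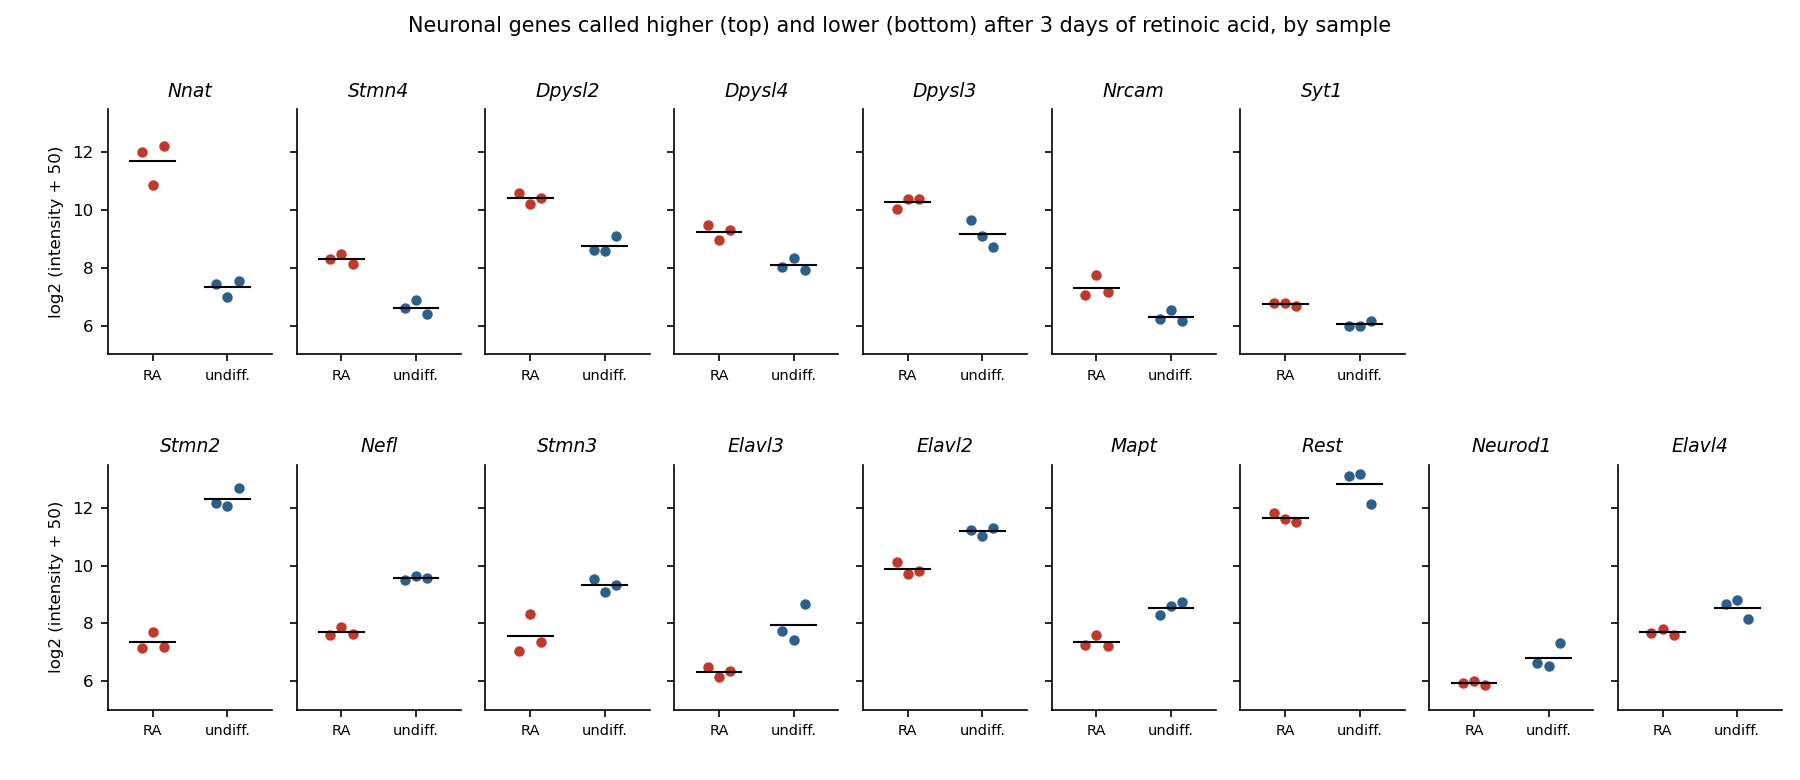
Log2 (intensity + 50) of the 16 called genes in each sample, retinoic acid (RA, red) left and undifferentiated (blue) right, with 1 point per sample and a line at the group mean. No gene's groups overlap, and the widest gaps are those of Nnat, 11.71 against 7.33, and Stmn2, 7.34 against 12.31.

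The upstream sequence of the 5 called genes with exactly 1 promoter window in the RefSeq table (GRCm38.p6) is shown because these genes differ in direction within one set of neuronal markers. Each window holds the 250 bases before the annotated start, 5′ to 3′ on the gene's strand. Capitals mark exact matches of CAGNTG, or CANCTG when read from the other strand, a form of the E-box that proneural factors bind. They also mark exact matches of the TATA box letters TATAAA or their reverse TTTATA. Other forms of either element were not searched for.
Neurod1 (lower, chr2:79456637-79456886, minus strand): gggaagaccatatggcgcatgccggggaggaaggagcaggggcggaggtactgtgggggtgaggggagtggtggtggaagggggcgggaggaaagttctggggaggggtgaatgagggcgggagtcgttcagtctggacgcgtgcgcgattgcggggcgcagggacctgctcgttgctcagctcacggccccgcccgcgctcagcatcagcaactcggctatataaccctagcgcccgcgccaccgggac
Elavl3 (lower, chr9:22052024-22052273, minus strand): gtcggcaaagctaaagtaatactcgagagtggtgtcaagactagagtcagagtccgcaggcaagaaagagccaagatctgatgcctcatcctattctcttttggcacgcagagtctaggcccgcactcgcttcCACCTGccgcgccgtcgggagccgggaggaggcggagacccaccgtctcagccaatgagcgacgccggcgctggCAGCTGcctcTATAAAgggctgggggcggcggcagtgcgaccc
Stmn3 (lower, chr2:181314501-181314750, minus strand): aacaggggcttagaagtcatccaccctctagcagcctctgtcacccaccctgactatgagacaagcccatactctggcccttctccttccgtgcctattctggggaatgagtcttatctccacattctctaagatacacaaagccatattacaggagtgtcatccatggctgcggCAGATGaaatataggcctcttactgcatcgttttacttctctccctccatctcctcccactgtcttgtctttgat
Nrcam (higher, chr12:44328635-44328884, plus strand): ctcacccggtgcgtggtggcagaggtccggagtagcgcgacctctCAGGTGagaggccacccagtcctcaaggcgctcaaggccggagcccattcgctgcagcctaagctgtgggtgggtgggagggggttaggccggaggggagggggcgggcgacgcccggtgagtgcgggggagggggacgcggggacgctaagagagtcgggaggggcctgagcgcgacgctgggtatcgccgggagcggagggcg
Nnat (higher, chr2:157559828-157560077, plus strand): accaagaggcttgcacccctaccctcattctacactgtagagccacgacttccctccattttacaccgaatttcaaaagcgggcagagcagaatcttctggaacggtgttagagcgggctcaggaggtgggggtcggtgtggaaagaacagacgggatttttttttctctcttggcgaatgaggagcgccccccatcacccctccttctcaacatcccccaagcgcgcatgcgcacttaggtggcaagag

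In these windows Elavl3 held 2 E-boxes and 1 TATA box of these forms, Stmn3 and Nrcam 1 E-box each, and Neurod1 and Nnat no exact match of either. The windows were unlike in base composition, with a GC content of 67.6% for Neurod1, 61.6% for Elavl3, 48.8% for Stmn3, 72.4% for Nrcam and 54.8% for Nnat. RefSeq windows were at hand for 27 of the 42 genes, 39 windows in all. An E-box of this form was found in 41.0% of them, against 44.8% of all 32851 windows of the table. The GC box GGGCGG was found in 64.1%, against 32.7% of all windows, and the CCAAT box in 43.6%, against 33.8%. The median GC content was 58.8% in the neuronal genes' windows, against 52.4% in all. The half-site AGGTCA of retinoic acid response elements was found in 17.9% of the neuronal genes' windows, against 14.0% of all. The direct repeat of this half-site with 5 bases between was found in 0 of the 39 windows, and in 0.00913% of all. The RE1 core, the binding element of REST, was searched for only as an exact match. It was also found in 0 of the 39, and in 0.0335% of all. The repeat and the RE1 core were so rare in all windows that 0 of 39 cannot show whether these genes lack them. Other forms of these elements, and sites outside the windows, were not searched for. Both strands were searched throughout, and the half-site also matches inside the repeat.

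None of the progenitor and glial markers was called, and 4 of the 6 were too dim to test. Nes encodes nestin, the intermediate filament of neural progenitors. It was at 9.57, 10.18 and 9.81 in retinoic acid samples and at 10.06, 10.20 and 10.33 in undifferentiated samples. The groups overlapped, and the difference of -0.35 ± 0.19 (SE) was not called (limma, adjusted p = 0.213). Pou3f1, also named Oct6, is a POU factor of the epiblast and of glial precursors. Its values were 7.21, 7.01 and 7.02 after retinoic acid and 8.98, 8.40 and 6.99 in undifferentiated cells, where replicate 3 lay at the level of the treated samples. Over all samples the difference was -1.04 ± 0.45 (SE; limma, adjusted p = 0.116), and without undifferentiated replicate 3 it was called at -1.61 (limma, adjusted p = 0.00208). As replicate 3 was the sample that made the groups overlap, its removal widens the difference by itself, and the call adds no support. Pou3f2 (Brn2), a POU factor of migrating and upper layer cortical neurons, was above background on 0 of 6 retinoic acid arrays and 3 of 6 undifferentiated arrays. Gfap, the astrocyte filament, was above it on 0 retinoic acid and 2 undifferentiated arrays. Fabp7, the fatty acid binding protein of radial glia, was above it on 0 retinoic acid arrays and 1 undifferentiated array, and Olig2, the factor of oligodendrocyte and motor neuron precursors, on 0 of either group.

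Of the proneural factors, only Neurod1 was called. NeuroD1 drives the late steps of neuronal differentiation. It was at 5.93, 5.99 and 5.85 in retinoic acid samples, below the limit on all 6 arrays, and at 6.61, 6.50 and 7.30 in undifferentiated samples, above the limit on all 6. All treated samples were thus lower, and the undifferentiated mean was at least 2.44-fold above the lowest measurable signal of the treated arrays (limma, adjusted p = 0.0198). The call was lost without retinoic acid replicate 1 (adjusted p = 0.0613) or 3 (adjusted p = 0.076). Neurog1, which commits progenitors to a neuronal fate, was at 6.94, 7.17 and 7.02 after retinoic acid and at 7.08, 7.44 and 6.72 undifferentiated. These ranges overlapped, and the difference was -0.04 ± 0.21 (SE; limma, adjusted p = 0.913). Its relative Neurog2 was above background on 0 retinoic acid arrays and 2 undifferentiated arrays.

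The 3 neuronal RNA-binding proteins of the Hu family, which stabilise and splice neuronal transcripts, all fell. Elavl2 (HuB) was at 10.11, 9.70 and 9.80 in retinoic acid samples and at 11.25, 11.01 and 11.30 in undifferentiated samples. Elavl3 (HuC) was at 6.49, 6.14 and 6.35 after retinoic acid and at 7.74, 7.43 and 8.66 undifferentiated. Elavl4 (HuD) was at 7.65, 7.81 and 7.58 after retinoic acid and at 8.68, 8.81 and 8.14 undifferentiated. In none of the 3 genes did the groups overlap. The differences were -1.32 ± 0.17 (SE; limma, adjusted p = 0.000972) for Elavl2, -1.61 ± 0.30 (SE; adjusted p = 0.00535) for Elavl3 and -0.86 ± 0.21 (SE; adjusted p = 0.0151) for Elavl4. Elavl3 was above background on 5 of 6 retinoic acid arrays, and on 2 with the highest control spot as the limit. A second probe of Elavl2 also fell by 1.32 (limma, adjusted p = 0.0232), that of Elavl4 differed by -0.49 (adjusted p = 0.0521), and that of Elavl3 was above background on 0 of 12 arrays. The Elavl4 call was lost without retinoic acid replicate 1 (adjusted p = 0.055), retinoic acid replicate 3 (0.066) or undifferentiated replicate 1 (0.0577).

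The 4 stathmins, small proteins that bind tubulin dimers and destabilise microtubules, went apart. Stmn2 (SCG10), a growth cone stathmin and a long known REST target, was at 7.14, 7.70 and 7.18 in retinoic acid samples and at 12.16, 12.06 and 12.70 in undifferentiated samples. It fell by 4.97 ± 0.23 (SE; limma, adjusted p = 1.21e-05), the largest fall among the 34 tested genes, and stayed above background on all 6 treated arrays. A second, dimmer probe of Stmn2 fell by 1.39 (limma, adjusted p = 0.0304) and was above background on 1 of 6 retinoic acid arrays and on all 6 undifferentiated arrays. Stmn3 (SCLIP) was at 7.02, 8.34 and 7.37 after retinoic acid and at 9.53, 9.10 and 9.34 undifferentiated. All 3 treated samples were lower, and Stmn3 fell by 1.75 ± 0.32 (SE; limma, adjusted p = 0.00499).

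Stmn4 (RB3) went the other way, with 8.29, 8.48 and 8.14 after retinoic acid and 6.60, 6.87 and 6.40 undifferentiated. Its rise was 1.68 ± 0.18 (SE; limma, adjusted p = 0.000355), and 5 of 6 undifferentiated arrays were above background. Stmn1 (oncoprotein 18), the stathmin of dividing cells, was at 14.88, 14.84 and 14.85 in treated samples and at 15.12, 15.39 and 15.14 in undifferentiated samples, over an intensity of 40000 on 2 retinoic acid arrays and 4 undifferentiated arrays. The brightest spots of the arrays lay between 42952 and 49949, so this probe was near the top of the scale. Its groups did not overlap, but the difference of -0.36 ± 0.15 (SE) was not called (limma, adjusted p = 0.102). A second Stmn1 probe, below 40000 on all arrays, fell by 1.004 (limma, adjusted p = 0.00418), and the bright probe was called lower when arrays were scaled to their 75th percentile (-0.89) or median (-0.85).

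**Figure D3:**
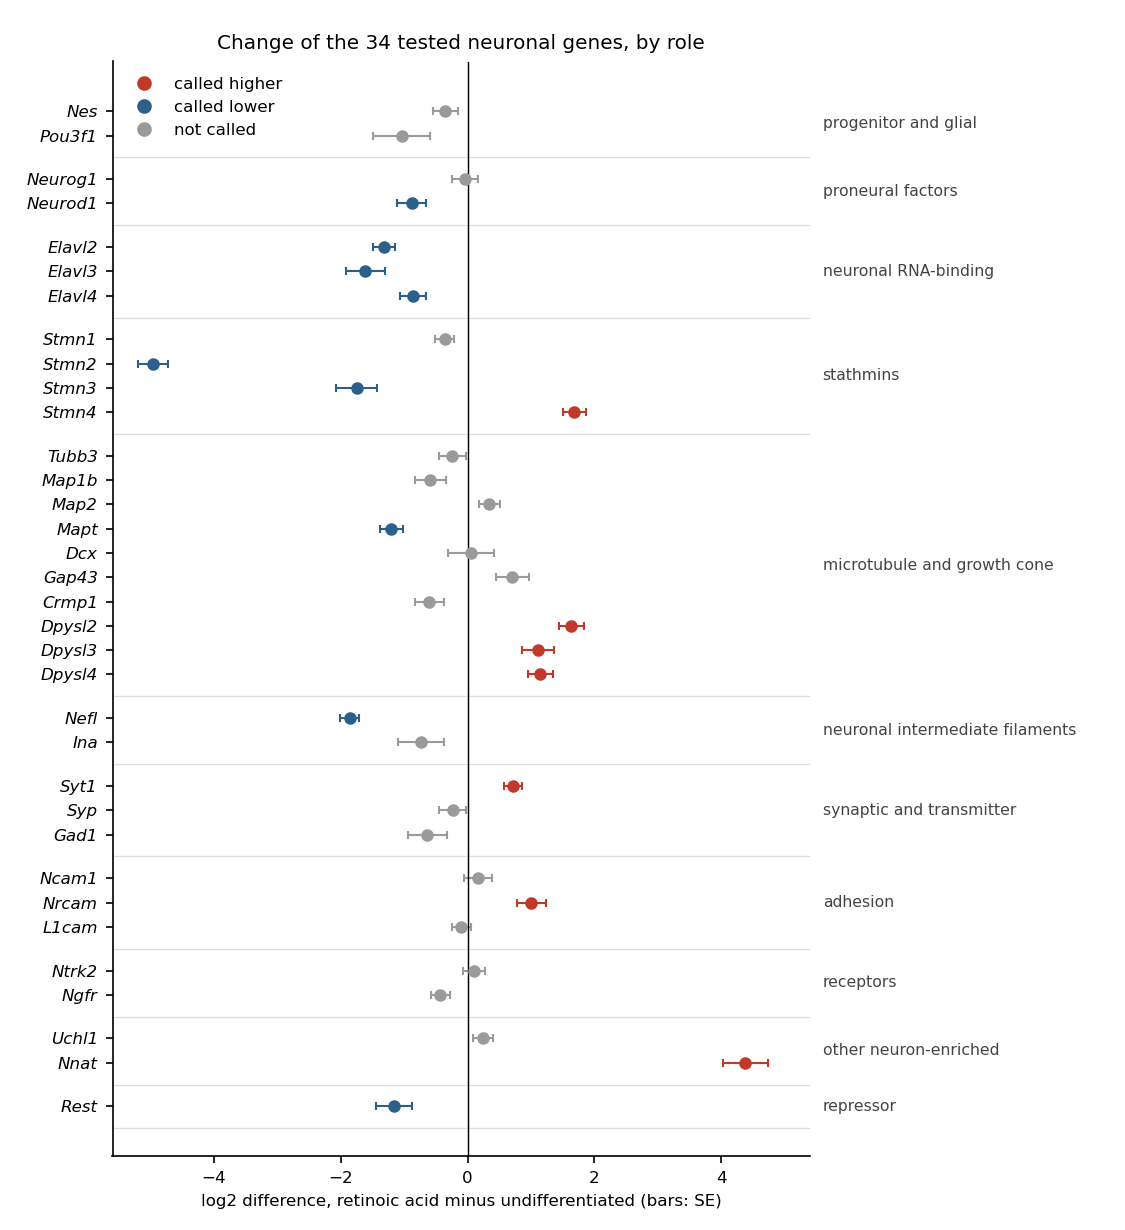
Log2 difference, retinoic acid minus undifferentiated, of the 34 tested neuronal genes by role, with the standard error of the limma fit as bars. Genes called higher are red, called lower blue and not called grey. The stathmins run from -4.97 for Stmn2 to 1.68 for Stmn4, and the 3 Elavl genes lie together between -1.61 and -0.86.

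Among the 10 microtubule and growth cone genes, 3 of the dihydropyrimidinase-like family rose, Mapt fell and 6 were not called. The family, also named collapsin response mediator proteins, links guidance signals to the growth cone's microtubules. Dpysl2 (CRMP2) was at 10.59, 10.21 and 10.42 in retinoic acid samples and at 8.62, 8.58 and 9.10 in undifferentiated samples. Dpysl4 (CRMP3) was at 9.50, 8.95 and 9.30 after retinoic acid and at 8.04, 8.34 and 7.93 undifferentiated. Dpysl3 (CRMP4) was at 10.04, 10.37 and 10.39 after retinoic acid and at 9.66, 9.10 and 8.71 undifferentiated. Every treated sample of the 3 genes was above every undifferentiated one. The rises were 1.64 ± 0.20 (SE; limma, adjusted p = 0.000618) for Dpysl2, 1.15 ± 0.20 (SE; adjusted p = 0.00354) for Dpysl4 and 1.11 ± 0.25 (SE; adjusted p = 0.0123) for Dpysl3. A dimmer Dpysl2 probe, above background on all 12 arrays, differed by -0.14 (limma, adjusted p = 0.735), so that the rise was seen on 1 of its 2 probes. The Dpysl3 call was lost without retinoic acid replicate 3 (adjusted p = 0.0531). The remaining family member on the list, Crmp1, was at 9.39, 9.59 and 8.98 after retinoic acid and at 10.27, 9.66 and 9.83 undifferentiated. Its groups did not overlap, in the direction opposite to that of its relatives, and it was not called (-0.60 ± 0.23, SE; limma, adjusted p = 0.0786).

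Mapt, which encodes the axonal microtubule protein tau, was at 7.24, 7.59 and 7.20 in retinoic acid samples and at 8.30, 8.61 and 8.73 in undifferentiated samples. The groups were apart, and Mapt fell by 1.20 ± 0.19 (SE; limma, adjusted p = 0.0021). Its other 2 probes fell by 0.76 (adjusted p = 0.0188) and 0.78 (adjusted p = 0.0495). Tubb3, the neuronal beta tubulin used as the standard stain for young neurons, was at 9.87, 10.13 and 10.22 after retinoic acid and at 10.10, 10.13 and 10.71 undifferentiated, with a difference of -0.24 ± 0.21 (SE; limma, adjusted p = 0.428). Map2, which binds microtubules in dendrites, was at 7.31, 7.47 and 7.41 after retinoic acid and at 7.01, 7.30 and 6.86 undifferentiated. Its values did not overlap, by a narrow margin, and its difference of 0.34 ± 0.17 (SE) was not called (limma, adjusted p = 0.159). Map1b, the microtubule protein of growing axons, was at 9.55, 9.95 and 9.68 after retinoic acid and at 10.62, 9.78 and 10.54 undifferentiated. Replicate 2 of the undifferentiated samples lay among the treated ones. The difference was -0.59 ± 0.25 (SE; limma, adjusted p = 0.112) and it was called at -0.85 without that sample (adjusted p = 0.0109). Leaving out the sample that made the groups overlap widens the difference by itself, so that call adds no support.

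Dcx encodes doublecortin, the microtubule protein of migrating neuroblasts. It was at 7.93, 6.59 and 7.63 after retinoic acid and at 7.67, 7.45 and 6.86 undifferentiated. Its treated samples spread over more than the whole undifferentiated range, and the difference was 0.06 ± 0.36 (SE; limma, adjusted p = 0.927). Gap43, the growth-associated membrane protein of axon tips, was at 6.81, 7.46 and 6.89 after retinoic acid and at 6.82, 6.11 and 6.12 undifferentiated. Undifferentiated replicate 1 lay within the treated range. The difference of 0.70 ± 0.26 (SE) was not called (limma, adjusted p = 0.0758), and it was called at 0.94 without that sample (adjusted p = 0.0331). Here too the sample left out was the one that made the groups overlap, so the call adds no support.

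Of the 3 neuronal intermediate filaments, the light neurofilament chain Nefl fell. It was at 7.61, 7.88 and 7.64 in retinoic acid samples and at 9.51, 9.63 and 9.56 in undifferentiated samples. The groups were far apart relative to their spread, and Nefl fell by 1.86 ± 0.15 (SE; limma, adjusted p = 9e-05). A dimmer Nefl probe, above background on all 12 arrays, differed by -0.21 (limma, adjusted p = 0.489). Ina, which encodes internexin, a filament of early postmitotic neurons, was at 10.89, 9.47 and 10.66 after retinoic acid and at 11.22, 11.30 and 10.72 undifferentiated on its brighter probe. Retinoic acid replicate 2 stood apart from the other treated samples, and the difference of -0.74 ± 0.37 (SE) was not called (limma, adjusted p = 0.169). On its second probe Ina averaged 9.46 ± 0.29 after retinoic acid and 11.17 ± 0.09 undifferentiated (SD, n = 3 each), and it fell by 1.71 in the fit of each probe by itself (limma, adjusted p = 0.000597). Nefm, the medium chain, was above background on 1 retinoic acid array and 0 undifferentiated arrays, although RefSeq places it next to Nefl on chromosome 14 with 0 protein-coding genes between them.

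Chromosome 14 held a further contrast of neighbours. Stmn4 and Dpysl2, both higher after retinoic acid, have 1 protein-coding gene between them in the RefSeq order. Dpysl2 and Nefl, which moved in opposite directions, have 8.

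Synaptic genes were at or near the background limit. Syt1, the calcium sensor of synaptic vesicle release, was at 6.80, 6.79 and 6.66 in retinoic acid samples and at 5.97, 5.99 and 6.15 in undifferentiated samples. It was above background on all 6 treated arrays and on 2 of 6 undifferentiated arrays, and it rose by 0.72 ± 0.14 (SE; limma, adjusted p = 0.0071). Another of its 6 probes rose by 0.50 (limma, adjusted p = 0.0456), the remaining 4 were too dim to test, and the call was lost with the mean of all 6 (0.16, adjusted p = 0.318). Syp, the vesicle protein synaptophysin, was at 6.34, 6.45 and 6.56 after retinoic acid and at 6.99, 6.82 and 6.24 undifferentiated. The groups overlapped, with a difference of -0.23 ± 0.22 (SE; limma, adjusted p = 0.46). Gad1, which makes the transmitter GABA, was above background on 0 of 6 retinoic acid arrays and 5 of 6 undifferentiated arrays and was not called (limma, adjusted p = 0.153). Its undifferentiated samples were at 6.23, 6.23 and 7.33, so replicate 3 alone stood clear of the treated samples at 6.16, 5.89 and 5.82. Snap25, a protein of the vesicle fusion complex, was above background on 2 arrays of each group.

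Adhesion molecules showed 1 rise. Nrcam, an immunoglobulin-family protein of axons and their guidance, was at 7.05, 7.75 and 7.16 in retinoic acid samples and at 6.22, 6.54 and 6.17 in undifferentiated samples. The groups did not overlap, and Nrcam rose by 1.01 ± 0.22 (SE; limma, adjusted p = 0.0106), with 3 of 6 undifferentiated arrays above background. On a second probe the difference was 0.25 (limma, adjusted p = 0.303), and the call was lost there and with the mean of its probes (0.40, adjusted p = 0.0504). Ncam1, which many embryonic tissues also make, was at 10.18, 10.13 and 10.09 after retinoic acid and at 9.50, 10.05 and 10.34 undifferentiated. The treated samples lay within the undifferentiated range, with a difference of 0.17 ± 0.22 (SE; limma, adjusted p = 0.616), and none of its 6 tested probes was called. L1cam, a related axonal protein, was above background on 2 retinoic acid arrays and 4 undifferentiated arrays and differed by -0.10 ± 0.15 (SE; limma, adjusted p = 0.674).

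No neurotrophic receptor on the list was called. Ngfr (p75), which binds all neurotrophins, was at 7.34, 7.51 and 7.35 after retinoic acid and at 7.72, 7.88 and 7.88 undifferentiated. All treated samples were lower, by -0.43 ± 0.14 (SE), and the adjusted p of 0.0559 in limma missed the threshold. It was past the threshold with 1 in place of 50 added before log2 (-0.58, adjusted p = 0.0484), with no filter on dim probes (adjusted p = 0.0342) and with only technical array 2 (-0.50, adjusted p = 0.0365). Ntrk2 (TrkB), the receptor of BDNF, was at 6.37, 6.59 and 6.33 after retinoic acid and at 6.54, 6.13 and 6.32 undifferentiated, with overlapping groups and a difference of 0.10 ± 0.17 (SE; limma, adjusted p = 0.692). Ret, the signalling receptor of the GDNF family, was above background on 0 of 12 arrays.

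Ligands, co-receptors and partners of these receptors were measured beside them. Of 10 tested genes 7 were higher and 0 lower, where 18.7% and 13.6% of all genes were, and their median was 1.02. Sort1 (sortilin), a co-receptor of p75 for proneurotrophins, was at 10.59, 10.59 and 10.51 after retinoic acid and at 7.78, 8.53 and 7.82 undifferentiated, a rise of 2.52 ± 0.22 (SE; limma, adjusted p = 0.000138), with 0.88 on a second probe. Maged1 (NRAGE), which binds the inner part of p75, rose by 2.16 ± 0.20 (SE; adjusted p = 0.000168). Among the GDNF family co-receptors, Gfra3, which binds artemin, rose by 1.87 ± 0.26 (SE; limma, adjusted p = 0.00143), with 8.28, 8.99 and 8.57 after retinoic acid and 6.62, 7.21 and 6.41 undifferentiated. The ligand neurturin (Nrtn) rose by 1.12 ± 0.33 (SE; limma, adjusted p = 0.0329), a call lost without retinoic acid replicate 1 or 3 or undifferentiated replicate 3 and with the replicate number as a block. The ligands Gdnf (-0.31, adjusted p = 0.161) and Bdnf (-0.29, adjusted p = 0.159) were not called.

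The largest rise among the neuronal genes was that of Nnat, an imprinted gene expressed from the paternal copy, whose product neuronatin is a small membrane protein of developing brain that adipose and endocrine tissues also make. It was at 12.02, 10.87 and 12.23 in retinoic acid samples and at 7.44, 6.99 and 7.55 in undifferentiated samples. Every treated sample was more than 3 log2 units above every undifferentiated one, with a rise of 4.38 ± 0.35 (SE; limma, adjusted p = 9.13e-05). Replicate 2 was the lowest of the 3 in both groups. Uchl1 (PGP9.5), a ubiquitin hydrolase abundant in neurons and germ cells, was at 12.14, 12.14 and 12.26 after retinoic acid and at 11.85, 11.80 and 12.14 undifferentiated. Its difference of 0.25 ± 0.16 (SE) was not called (limma, adjusted p = 0.279) and turned to -0.09 with 75th percentile scaling and -0.06 with median scaling.

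Rest, the repressor of many of these genes, fell. It was at 11.83, 11.60 and 11.52 in retinoic acid samples and at 13.12, 13.18 and 12.15 in undifferentiated samples on its brightest probe. The groups did not overlap, although undifferentiated replicate 3 lay nearer to the treated samples than to its own group. The difference was -1.17 ± 0.28 (SE; limma, adjusted p = 0.0161), and the call was lost without retinoic acid replicate 3 (adjusted p = 0.0637) or undifferentiated replicate 1 (adjusted p = 0.0619). The second probe of Rest was tighter, with 10.93, 11.13 and 10.94 after retinoic acid and 12.68, 12.82 and 13.15 undifferentiated, and it fell by 1.88 (limma, adjusted p = 0.000306). Its remaining, dim probe differed by -0.77 (adjusted p = 0.12). All 6 arrays of both groups were above background for the brighter 2 probes, so Rest transcript was measured in treated cells as well.

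Of 16 tested genes of the REST complex and its regulation 4 were higher (25.0%, with 18.7% in all genes) and 3 lower (18.8%, with 13.6% in all genes), shares near those of all genes, with a median of 0.23. The small C-terminal domain phosphatases, which REST recruits and which dephosphorylate it, rose: Ctdspl by 2.59 ± 0.19 (SE; limma, adjusted p = 5.75e-05), Ctdsp2 by 1.01 ± 0.17 (SE; adjusted p = 0.00362) and Ctdsp1 by 0.98 ± 0.23 (SE; adjusted p = 0.0127). A second Ctdsp2 probe differed by -0.53, and the Ctdsp1 call was lost without retinoic acid replicate 1 or 3 or undifferentiated replicate 1. Usp7, which spares REST from breakdown, fell by 0.64, and Btrc, the ubiquitin ligase subunit that marks it for breakdown, fell by 0.60. The deacetylase Hdac2 fell by 0.83 on 1 of 2 probes. The calls of Usp7, Btrc and Hdac2 were each lost without 2 or more single samples, retinoic acid replicate 1 among them, and that of Btrc also with the replicate number as a block, with median scaling and with 1 or 10 in place of 50 added before log2.

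Of 22 other textbook REST targets tested 1 was higher (4.55%, with 18.7% in all genes) and 4 lower (18.2%, with 13.6% in all genes), with a median of -0.01. Cplx1, which encodes the vesicle protein complexin, was at 6.19, 6.64 and 6.46 after retinoic acid and at 7.53, 8.12 and 7.92 undifferentiated, and it fell by 1.42 ± 0.21 (SE; limma, adjusted p = 0.00156). Unc13a, a vesicle priming factor, fell by as much on 1 of 2 probes (adjusted p = 0.000383) and was above background on 2 of 6 retinoic acid arrays. Celsr3 (-0.89) and Chga (-0.90) were lower and Bex1 (0.88) higher, calls that were lost without retinoic acid replicate 1 or 3. The call of Bex1 was also lost with either other scaling. That of Chga was also lost with the replicate number as a block, with median scaling, with no filter on dim probes and without undifferentiated replicate 1 or 3.

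Of 33 tested relatives of the listed genes in the same families 5 were higher (15.2%) and 6 lower (18.2%), shares near the 18.7% and 13.6% of all genes, with a median of 0.05. The tubulin Tubb6 rose by 2.05 (-0.08 on a second probe), the synaptotagmin Syt11 by 1.49 (0.28 on a second probe) and the mesenchymal filament vimentin (Vim) by 1.20 (-0.01 on a second probe). The heavy neurofilament chain Nefh fell by 1.16 on its brighter probe and 1.24 on the other, the direction of Nefl, and the fatty acid binding protein Fabp3 fell by 1.26. The call of Vim was lost with either other scaling and without any 1 of 5 samples, all but undifferentiated replicate 3.

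Progenitor and neuronal genes outside the list of 42 were also counted. Of 23 other progenitor factors tested 7 were higher (30.4%) and 3 lower (13.0%), beside 18.7% and 13.6% of all genes, with a median of 0.22. Zic1, a zinc finger factor of the dorsal neural tube, was at 8.88, 9.09 and 8.89 after retinoic acid and at 5.84, 5.94 and 5.85 undifferentiated, where 2 of 6 arrays were above background, and it rose by 3.08 ± 0.15 (SE; limma, adjusted p = 1.21e-05). Prom1 (3.02), Cdh2 (2.60, with 0.42 on a second probe) and Pax6 (1.71, with -0.25 on a second probe) rose, and Sox2, shared by progenitors and pluripotent cells, fell by 3.05. Lhx1 was not called on its brightest probe (-0.40), while a second probe differed by 3.06. Of 29 other neuronal genes 12 were higher (41.4%) and 2 lower (6.90%), with a median of 0.25. Kif1a, the motor of synaptic vesicle precursors, was at 9.89, 9.81 and 9.63 after retinoic acid and at 7.46, 7.76 and 6.64 undifferentiated, and it rose by 2.49 ± 0.28 (SE; limma, adjusted p = 0.000469), with 1.03 on a second probe. Onecut2 (1.78), Scg5 (1.78) and the motor neuron factor Mnx1 (1.58) rose too. Of the rises in the neuronal list, Scg5, Mnx1, Ebf3, Onecut1 and Gpm6a were tested only through their retinoic acid arrays. They were above background on 2 or 3 of 6 undifferentiated arrays, and 10 genes of that list were too dim to test. In the progenitor list the same held for Zic1 and Cdh2. The shares of rises therefore partly reflect which genes passed the filter. Thy1 (-2.07, with -0.76 on a second probe) and Celf4 (-1.34) fell. The difference between these lists and the 42 genes was not tested.

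**Figure D4:**
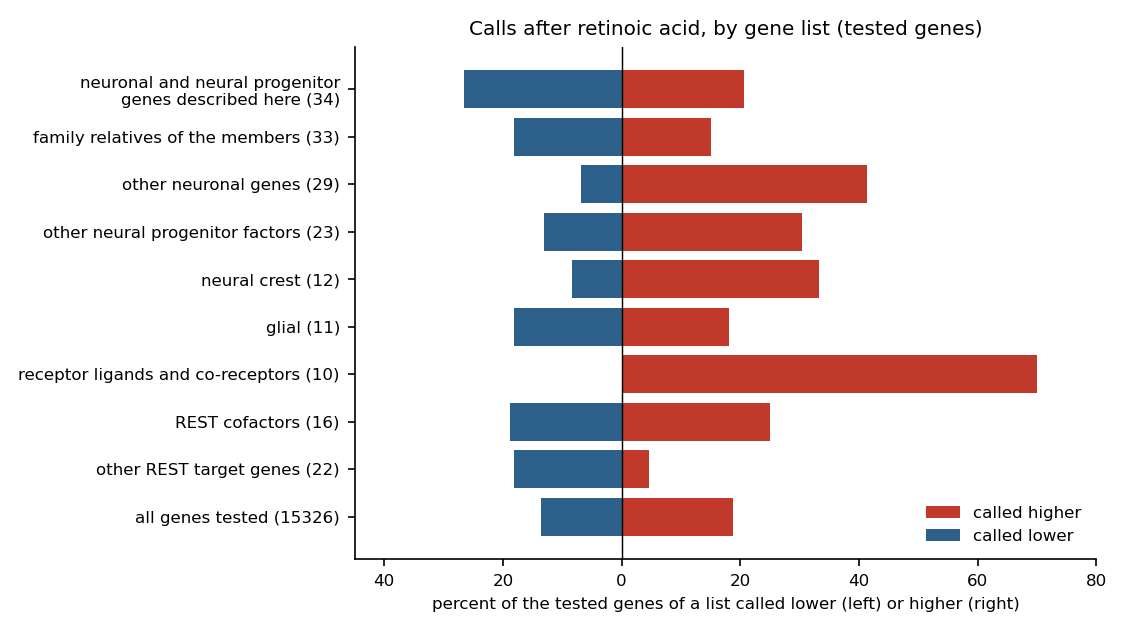
Percent of the tested genes of each list called lower (blue, left of 0) or higher (red, right of 0) after retinoic acid, with the number tested in brackets. The 42-gene list (34 tested) stands at 20.6% higher and 26.5% lower, other neuronal genes at 41.4% and 6.90%, receptor ligands and co-receptors at 70.0% and 0, and all genes tested at 18.7% and 13.6%. Some called genes of the lists passed the background filter only through the group in which they are high.

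Neural crest and glial markers were also measured. Of 12 neural crest genes 4 were higher (33.3%, with 18.7% in all genes) and 1 lower (8.33%, with 13.6% in all genes), with Msx1 (3.07, and -0.53 on a second probe), Twist1 (2.71) and Ednrb (2.48) higher and Foxd3 (-2.44) lower. Their summed intensity was 6411 to 7635 after retinoic acid and 4237 to 5852 undifferentiated. Sox9 (-0.58) and Erbb3 (-0.45) were not called on their brightest probes, while second probes differed by 3.59 and 0.98. Of 11 glial genes 2 were higher and 2 lower (18.2% each, near the shares of all genes), with Mbp at 2.30 on 1 of its probes and 0.03 on another. On all 6 retinoic acid arrays 10 of the 14 glial genes on the list were above background, where 63.6% of all named genes were. Slc1a3, Aldh1l1, Aldoc and Glul were among them, while S100b and Slc1a2 were above it on 0. All of the 10 except Nfia (3 of 6) were also above it on all 6 undifferentiated arrays.

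Different probes of a gene did not always move together. Of the 86 probes 56 were tested one by one, and 8 were higher and 16 lower, where 14% and 11.5% of all 26587 probes tested were (25.5% in either direction). In 14 of the 16 genes with at least 2 tested probes all tested probes had the same sign, the exceptions being Dpysl2 and Ncam1. At least 2 probes were called the same way in 5 genes (Elavl2, Mapt, Rest, Stmn2 and Syt1), and in none were probes called in opposite directions. Sizes differed by probe even where the sign did not, as for Stmn2 (-4.97 and -1.39) and Nefl (-1.86 and -0.21).

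**Figure D5:**
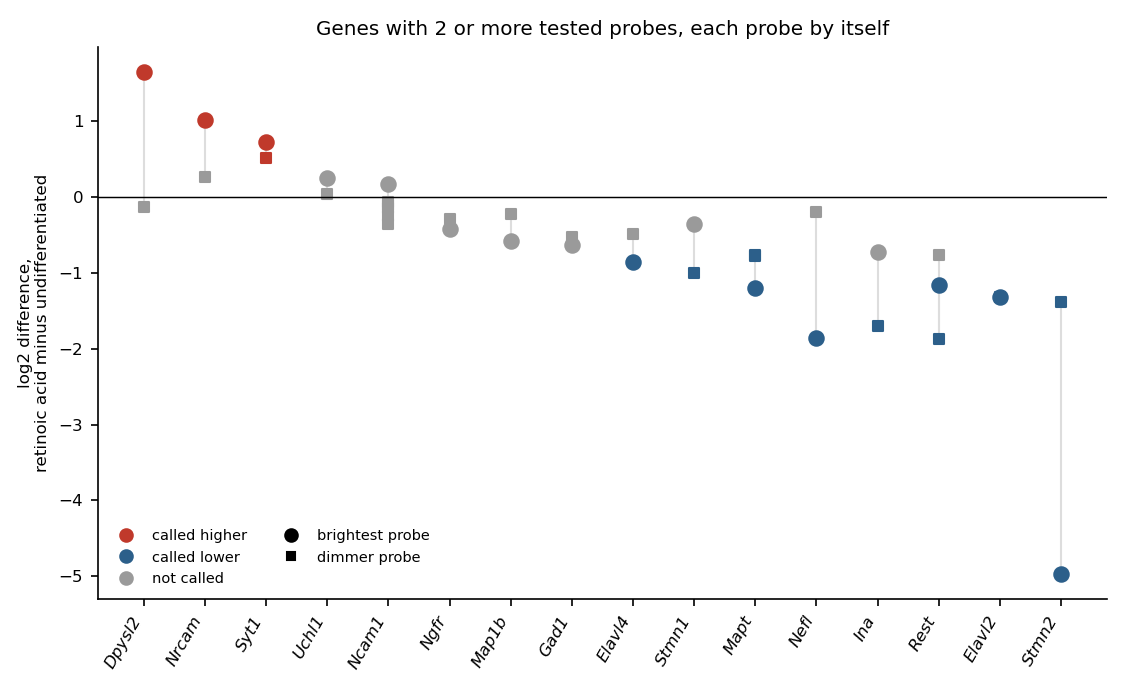
Log2 difference, retinoic acid minus undifferentiated, of each tested probe of the 16 neuronal genes with 2 or more tested probes. Circles are the brightest probe of a gene, squares its dimmer probes, and red, blue and grey mark called higher, lower and not called, so that the 2 Elavl2 probes at -1.32 lie on each other and the Stmn2 probes at -4.97 and -1.39 lie apart.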

How the data were processed

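Per the file headers, the deposited scanner tables give the net mean intensity of each spot, from which the authors' software had already taken off a background by a method the sources used here do not give. The authors also deposited processed intensities of the same arrays, used here as an alternative, and the submitters' notes on processing list R 2.15.0 and limma. In 1 file, undifferentiated replicate 2 technical array 2, the header names that sample's other array.

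The 41174 probes were named through accession or symbol with the RefSeq table of GRCm38.p6. Intensities were quantile-normalised over the 12 arrays, 50 was added, log2 was taken and technical arrays were averaged. The 27 control spots behind the background limit were 1 negative control spot, 1 dark corner and spots of the types RC (12) and ETG (13), whose content is not stated. The plan foresaw another scanner format, and its fallback for other arrays was used. Groups were compared with limma 3.58.1 in R 4.3.3 (lmFit and eBayes, two-sided, no covariates), with Benjamini-Hochberg adjustment over 15326 genes, or over 26587 probes for each probe by itself. Of all genes, 2872 were higher and 2083 lower, and 6554 had an unadjusted p under 0.05. For a gene above the limit on 0 arrays of one group the fold is a lower bound: the brighter group's mean over the mean of, per array, the lowest signal above the limit or the gene's own, whichever was higher, without the added 50. The fit was tested on simulated data. Python 3.11.15 with matplotlib 3.10.9 drew the figures.

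The 42 genes, the other gene lists and the alternatives were chosen with earlier results of these data known. All 42 genes are named, and of each other list up to 4 of the largest rises and falls, with a few others named after their values were seen. One further gene is counted in the totals and is not reported here.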

Additional observations from a re-analysis of the deposited data

How the results depend on the processing

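The number of arrays limits precision, dim genes lie near the background limit, and the depth of detection differs between arrays. Over the alternatives run, the calls of Elavl2, Elavl3, Stmn2, Stmn3, Stmn4, Mapt, Dpysl4 and Nnat were kept wherever the gene was tested. Neuronal genes called higher numbered 7, and 4 when only genes above the limit on all 12 arrays were tested, where Stmn4, Nrcam and Syt1 were left out. They also numbered 4 with each gene's second brightest probe, where a gene with 1 probe kept that probe. These were Nnat, Stmn4, Dpysl4 and Dpysl3, which have 1 probe each, so their calls were not put to a second probe. Dpysl2 and Nrcam were tested on their second probe and not called, and that of Syt1 was too dim to test. Neuronal genes called higher ranged from 6 to 8, and those called lower from 6 to 10, when 1 sample was left out, with the 6 lower genes without retinoic acid replicate 3. Neither other scaling ended a call among the neuronal genes. Scaling each array to its 75th percentile gave 2435 higher and 2633 lower genes of all, scaling to the median 2368 and 2240, against 2872 and 2083 with quantile normalisation, and moved the median of all genes to -0.09 and -0.06. At an adjusted p under 0.01 all genes called numbered 1784 higher and 1114 lower, and 5 and 6 of the neuronal genes. Leaving out 1 sample gave 1228 to 2108 lower genes and 2007 to 3148 higher genes, the lowest without retinoic acid replicate 3, and 1326 lower genes without retinoic acid replicate 1. The replicate number as a block gave 7 higher and 9 lower neuronal genes (2849 and 2040 of all). Same-numbered samples deviated together at -0.06, 0.22 and 0.07, so the numbers were not taken to pair the samples. Intensity did go with the number: the brightest spots were 48088 to 49949 on the replicate 3 arrays of both groups and 42952 to 44752 on the others. Quantile normalisation levels such shifts, so these correlations could not show them. Differences that turned sign, all of genes not called except Dpysl2, were those of Neurog1 (0.0036 with median scaling, 0.0054 with technical array 1 only, -0.219 to 0.142 without 1 sample, above 0 without retinoic acid replicate 1 or undifferentiated replicate 2), Dcx (-0.061 with technical array 1 only, from -0.218 to 0.452 without 1 sample), Ncam1 (-0.12 with the mean of its probes, -0.36 on the second probe, from -0.063 to 0.357 without 1 sample, the lowest without undifferentiated replicate 1), Ntrk2 (-0.084 with the mean of its probes), Uchl1 (-0.094 and -0.059 with the 2 scalings) and Dpysl2 (-0.14 on the second probe). Leaving out the array with the doubtful header, either technical array or the authors' values in place of the scanner values kept 7 higher and 9 or 10 lower neuronal genes. The limit at the highest control spot, chosen after seeing the data, gave 7 and 9. Except for the filter on all 12 arrays, the cause of these changes was not tested.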
